A study of Mus musculus with 18 samples.

Results

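Luminal progenitors (LP) and mature luminal (ML) cells, the populations that make up the inner layer of the mammary ducts, were compared in wild-type (WT) mice. The comparison used 6 of the 18 libraries of the series, 3 of LP WT and 3 of ML WT. Members were the columns of the deposited count table whose names carry the sort gate P7 (LP) or P8 (ML) together with WT, and each LP library was paired with the ML library of the same mouse through the mouse number in the name. The series measured messenger RNA in basal, LP and ML cells sorted by flow cytometry from the mammary epithelium of 14-week-old female mice, 3 knockout and 3 WT. The knockout mice carried MMTV-cre(T/+) with Brca2(delta/delta) and, on 1 allele, deleted Trp53 (Trp53(delta/+)). Knockout libraries are not compared here and entered only the filter on low counts, the scaling and the estimate of the spread. The strain is labelled alike in all libraries, WT included: MMTVcre with floxed Brca2 (fl/fl) and Trp53 (fl/+), in which a mammary tumour virus promoter drives Cre in mammary epithelium. The sources used here do not say whether WT mice carried Cre or the floxed alleles, or which antibodies set the gates.

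The luminal layer holds a pair of lineages with different tasks. Mature luminal cells sense hormones: they carry the receptors for oestrogen, progesterone and prolactin and pass the signal on to their neighbours through secreted factors such as amphiregulin, WNT4 and RANK ligand. Luminal progenitors largely lack the steroid receptors, divide in answer to those secreted factors, and in pregnancy give rise to the alveolar cells that make milk under prolactin, STAT5 and the transcription factor ELF5.

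Levels are counts-per-million (CPM) after TMM scaling, in the order of mouse 1, 2 and 3. Adjusted p-values come from edgeR's quasi-likelihood test with the mouse as a block, Benjamini-Hochberg adjusted over 16466 genes. Log2 fold changes are LP over ML ± standard error (SE), which was worked back from the F statistic of that test and is approximate. A gene was called at an adjusted p under 0.05. Total counts ran from 9.29 M to 16.17 M in LP libraries and from 5.97 M to 20.33 M in ML libraries, so that ML of mouse 1 was the shallowest library of the series. The 10 most abundant genes held 7.27% to 8.81% of counts in LP and 6.02% to 6.17% in ML, and the groups did not overlap in this share. In bulk samples, fewer cells with a transcript and less of it per cell cannot be told apart.

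Of the 16466 genes tested, 6484 were called (39.4%). LP had the higher level in 3370 of them (20.5% of genes tested) and the lower level in 3114 (18.9%). With a fold change above 2-fold as well, 2517 genes were higher in LP (15.3%) and 2153 were lower (13.1%). The median log2 fold change over all genes was 0.01. The direction was the same in all 3 mice for 6306 of the 6484 called genes. In 7454 of the genes tested (45.3%) the LP and ML libraries did not overlap, called or not, and where members are said to be separated or not to overlap below, this is the share over all genes. Against so broad a difference, the gene lists below are read beside these percentages.

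**Figure D1:**
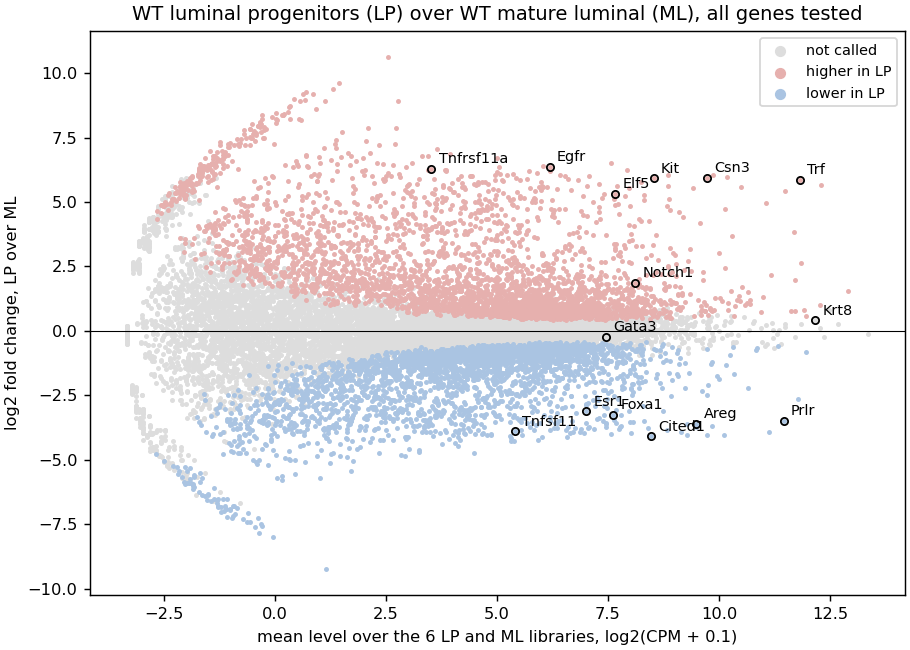
Log2 fold change of LP over ML (y axis) against the mean level over the 6 LP and ML libraries in log2(CPM + 0.1) (x axis), 1 point per gene tested, red where higher in LP, blue where lower in LP and grey where not called. Kit, Csn3, Trf and Egfr lie near 6 on the y axis, Prlr, Cited1, Areg and Tnfsf11 near -4, and Krt8 and Gata3 near 0.

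The labels were set beside markers of each population. All 19 luminal progenitor identity genes were higher in LP, with a median log2 fold change of 5.21, and their summed level was 16687 to 26813 CPM in LP libraries and 881 to 915 CPM in ML libraries. Of 18 mature luminal identity genes, 16 were lower in LP and Gata3 and Greb1 were not called. The median was -3.34, and the sum was 1216 to 1590 CPM in LP libraries, against 10952 to 13312 CPM in ML libraries. Both sums separated the groups in all 3 mice, as the labels have it. The lists were written with earlier results of these data known, so this is no independent check of the labels.

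**Figure D2:**
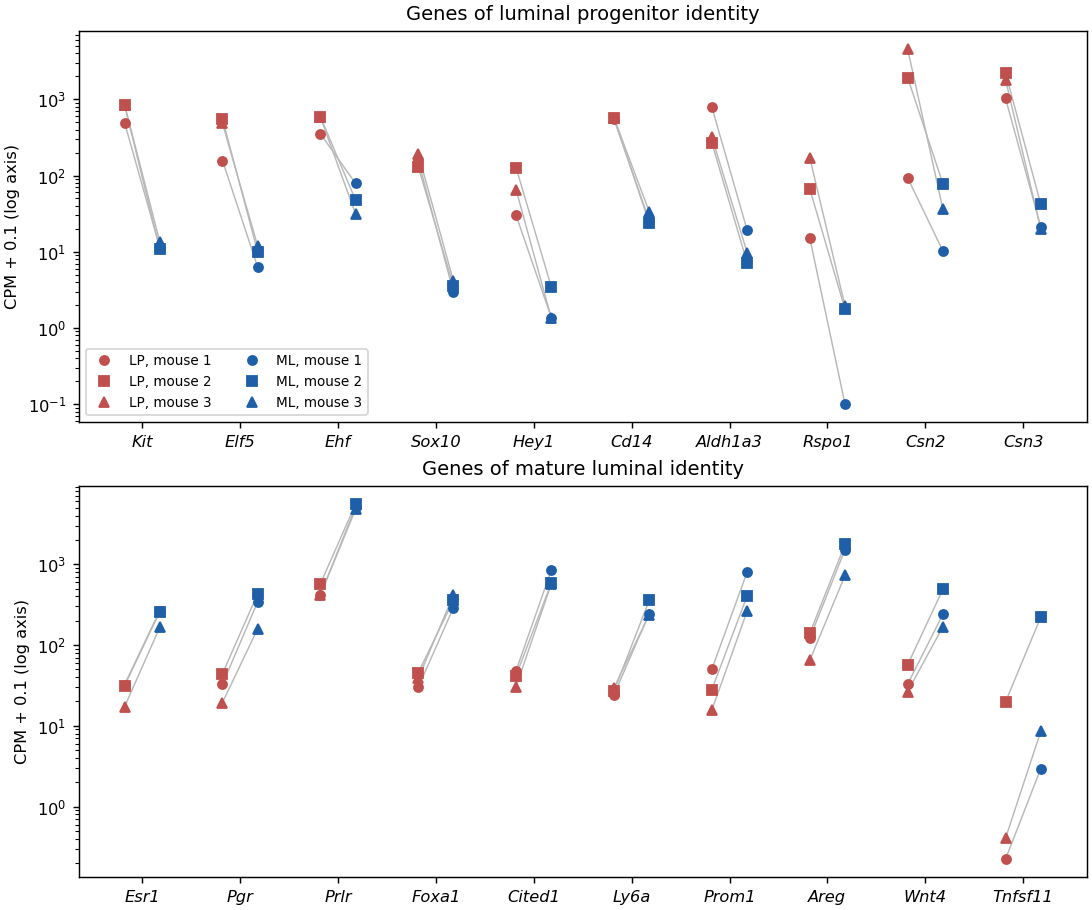
Level of 10 luminal progenitor genes (top) and 10 mature luminal genes (bottom) in each library, in CPM + 0.1 on a log axis, LP in red on the left and ML in blue on the right of each pair, with lines joining libraries of the same mouse. Every line falls in the top panel and climbs in the bottom panel, and Csn2, Rspo1 and Tnfsf11 spread most between mice.

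Surface proteins and transcription factors of the progenitor programme were many times higher in LP. Kit, the receptor for stem cell factor, had 492, 833 and 852 CPM in LP, against 11.2, 10.8 and 13.3 CPM in ML, a 60.8-fold difference (log2 fold change 5.93 ± 0.44, adjusted p = 9.3e-08). Cd14, the co-receptor for bacterial lipopolysaccharide, had 553, 561 and 568 CPM in LP, against 25.5, 23.9 and 33.5 CPM in ML (log2 fold change 4.33 ± 0.40, adjusted p = 6.9e-07). Itgb3, the integrin beta-3 chain, stood at 40.0, 65.4 and 40.2 CPM in LP, against 2.22, 1.33 and 2.14 CPM in ML, with a log2 fold change of 4.71 ± 0.36, adjusted p = 1.3e-07. In each of these genes the lowest LP library lay more than 10 times above the highest ML library, and Cd14 varied by less than 1.5 times within each population.

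Elf5, which drives alveolar differentiation, was at 157, 552 and 484 CPM in LP, against 6.18, 9.84 and 11.8 CPM in ML (log2 fold change 5.32 ± 0.49, adjusted p = 6.6e-07). Its relative Ehf, another ETS-family factor of epithelia, was at 353, 593 and 587 CPM in LP, against 78.7, 47.2 and 31.2 CPM in ML (log2 fold change 3.29 ± 0.40, adjusted p = 1.0e-05). Sox10 reached 158, 131 and 193 CPM in LP, against 2.85, 3.42 and 4.02 CPM in ML (log2 fold change 5.49 ± 0.36, adjusted p = 3.5e-08). All 3 factors were separated between the populations, and mouse 1 had the lowest Elf5 and Ehf of the LP libraries. Hey1, a transcriptional target of Notch, had 29.9, 126 and 64.8 CPM in LP, against 1.27, 3.34 and 1.24 CPM in ML (log2 fold change 5.21 ± 0.51, adjusted p = 1.1e-06). Sox9 differed less, with 786, 726 and 541 CPM in LP, against 412, 328 and 227 CPM in ML and a log2 fold change of 1.10 ± 0.20, adjusted p = 4.0e-04. Some of these genes were not particular to LP. In the basal libraries of the same mice Sox10 averaged 118 CPM and Itgb3 48.0 CPM, whereas Kit, Elf5 and Ehf averaged 2.16, 2.26 and 3.59 CPM. Aldh1a3, the retinaldehyde dehydrogenase behind the ALDH activity used to enrich progenitors, had 787, 267 and 319 CPM in LP, against 19.2, 7.09 and 9.67 CPM in ML (log2 fold change 5.24 ± 0.43, adjusted p = 2.3e-07), and here mouse 1 was the highest LP library.

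Of 48 transcription factors listed for the luminal lineages, 22 were higher in LP and 11 were lower, with a median of 1.02 (0.94 with the members at 0 in 1 population placed at their bound). Foxc1, a forkhead factor, had 80.2, 56.0 and 45.3 CPM in LP, against 1.58, 2.50 and 1.84 CPM in ML (log2 fold change 4.87 ± 0.30, adjusted p = 2.7e-08). Runx2, best known from bone, had 20.4, 47.9 and 24.9 CPM in LP, against 0.158, 0.918 and 0.556 CPM in ML, with a log2 fold change of 5.72 ± 0.35, adjusted p = 2.7e-08. Its paralogue Runx1 was on the other side, at 359, 354 and 155 CPM in LP, against 632, 509 and 289 CPM in ML (log2 fold change -0.74 ± 0.27, adjusted p = 0.044). Runx2 was separated between the populations whereas Runx1 overlapped, since ML of mouse 3 lay below LP of mice 1 and 2. Cebpb and Cebpd, leucine-zipper factors of epithelial differentiation and inflammation, rose by 3.48 ± 0.24 and 4.26 ± 0.46 on the log2 scale in LP, and Tfap2c by 3.09 ± 0.23. Its paralogue Tfap2b was lower, at 44.04, 85.2 and 44.4 CPM in LP, against 133, 242 and 311 CPM in ML (log2 fold change -1.94 ± 0.30, adjusted p = 1.1e-04). The AP-2 paralogues were thus on opposite sides too. Bcl11a, a zinc finger factor, had 9.99, 24.2 and 25.01 CPM in LP, against 0.792, 0.751 and 0.299 CPM in ML (log2 fold change 5.18 ± 0.65, adjusted p = 1.4e-05). Among the inhibitor-of-differentiation genes, Id1 was higher in LP by 2.94 ± 0.43 and Id3 lower, at -2.73 ± 0.38, on the log2 scale. Factors of the ML side included Tbx3 and Meis1. Tbx3, a T-box factor of hormone-sensing cells, had 24.5, 30.02 and 18.8 CPM in LP, against 228, 174 and 149 CPM in ML (log2 fold change -2.91 ± 0.35, adjusted p = 1.0e-05). Meis1 had 5.06, 7.78 and 3.31 CPM in LP, against 33.4, 48.0 and 38.9 CPM in ML (log2 fold change -2.93 ± 0.35, adjusted p = 9.9e-06). Myc, the growth-promoting factor, rose by 2.64 ± 0.29 (adjusted p = 3.5e-06), with 632, 455 and 248 CPM in LP, against 88.5, 80.9 and 42.4 CPM in ML.

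Surface antigens used to sort or trace mammary cells gave 10 genes higher in LP and 4 lower among 21 tested. Cd44, the hyaluronan receptor, had 622, 394 and 215 CPM in LP, against 15.05, 11.01 and 10.95 CPM in ML (log2 fold change 4.93 ± 0.26, adjusted p = 2.1e-08). Tspan8, a tetraspanin, had 120.0, 96.2 and 39.2 CPM in LP, against 2.69, 3.003 and 0.684 CPM in ML (log2 fold change 5.39 ± 0.40, adjusted p = 1.0e-07). Alcam, an adhesion molecule, was lower in LP, at 177, 205 and 101 CPM in LP, against 648, 861 and 442 CPM in ML (log2 fold change -2.02 ± 0.31, adjusted p = 1.0e-04). These 3 were separated between the populations, and Cd44 and Tspan8 were highest in LP of mouse 1. The collagen-binding integrin chain Itga2 was higher in LP, with 128, 81.4 and 90.7 CPM in LP, against 33.1, 11.7 and 26.99 CPM in ML (log2 fold change 2.13 ± 0.55, adjusted p = 0.0066). Itga5, a fibronectin receptor chain, was lower, with 23.3, 9.01 and 6.80 CPM in LP, against 80.1, 46.5 and 58.1 CPM in ML (log2 fold change -2.43 ± 0.25, adjusted p = 1.7e-06). Epcam and Cd24a, general epithelial antigens, were not called (log2 fold changes 0.22 ± 0.21 and -0.53 ± 0.27).

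The ETS family as a whole leaned the same way as Elf5 and Ehf. Of 21 ETS factors, 11 were higher in LP and 2 were lower. Elf4 had 35.2, 10.1 and 12.2 CPM in LP, against 5.54, 1.67 and 0.642 CPM in ML (log2 fold change 3.10 ± 0.39, adjusted p = 1.6e-05). Elf3 had 341, 423 and 245 CPM in LP, against 95.7, 108 and 100.4 CPM in ML (log2 fold change 1.71 ± 0.26, adjusted p = 1.0e-04). Against them stood Spdef, an ETS factor of secretory and oestrogen-receptor-positive epithelium, with 2.34, 3.56 and 1.53 CPM in LP, against 14.4, 18.4 and 12.96 CPM in ML (log2 fold change -2.68 ± 0.38, adjusted p = 4.5e-05). Etv4, with 3.82, 4.003 and 3.31 CPM in LP, against 13.1, 21.3 and 21.5 CPM in ML (log2 fold change -2.30 ± 0.32, adjusted p = 4.4e-05). Elf3, Spdef and Etv4 were separated between the populations and Elf4 was also. The number higher in LP was 6 without mouse 2, and 7 without mouse 1, without either of its libraries, without ML of mouse 2 or without the mouse block.

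Milk genes had the highest median of all lists after luminal progenitor identity, in young adult females that are not labelled as pregnant. Of 25 genes for milk proteins and their secretion, 22 were higher in LP and 1, the water channel Aqp5, was lower, with a median log2 fold change of 4.73 (4.57 with members at their bound). Promoters of 3 casein genes are shown because caseins are the main milk proteins and textbook STAT5 targets. The sequences are RefSeq's on GRCm38.p6, from 250 bases before to 50 bases after the annotated start, each read on its gene's strand, and capitals mark the matches to the STAT motif TTCNNNGAA. Csn1s1 lies at chr5:87665958-87666257 on the plus strand, Csn2 at chr5:87699376-87699675 on the minus strand and Csn1s2a at chr5:87774200-87774499 on the plus strand.
Csn1s1: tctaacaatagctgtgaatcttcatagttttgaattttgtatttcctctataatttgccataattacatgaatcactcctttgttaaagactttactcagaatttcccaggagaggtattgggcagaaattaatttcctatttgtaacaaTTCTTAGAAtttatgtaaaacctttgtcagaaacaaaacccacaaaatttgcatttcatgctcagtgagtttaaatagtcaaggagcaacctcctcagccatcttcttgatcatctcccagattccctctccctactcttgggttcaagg
Csn2: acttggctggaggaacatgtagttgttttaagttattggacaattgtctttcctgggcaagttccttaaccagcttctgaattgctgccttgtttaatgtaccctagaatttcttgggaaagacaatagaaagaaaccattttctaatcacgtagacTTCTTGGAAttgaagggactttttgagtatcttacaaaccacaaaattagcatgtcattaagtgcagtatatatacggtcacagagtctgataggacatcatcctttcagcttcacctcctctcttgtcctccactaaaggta
Csn1s2a: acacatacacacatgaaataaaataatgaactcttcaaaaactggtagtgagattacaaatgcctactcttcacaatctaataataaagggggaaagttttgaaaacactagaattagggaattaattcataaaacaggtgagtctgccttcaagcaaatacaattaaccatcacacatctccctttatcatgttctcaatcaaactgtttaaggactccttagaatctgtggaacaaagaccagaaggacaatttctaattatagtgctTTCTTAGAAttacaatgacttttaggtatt
The match begins 100 bases before the start in Csn1s1, 93 before it in Csn2 and 20 after it in Csn1s2a. Csn3 had no window. A STAT match was also present in a window of Prlr and in a window of Esr1, genes lower in LP. It begins 110 bases before the start in Prlr and 188 before it in Esr1. Such a match is only a description. Searched over both strands of 15484 windows, it was present in 6.34% of windows of genes at least 2-fold higher in LP, 6.77% of those of genes at least 2-fold lower in LP and 6.91% of all.

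Csn2, beta-casein, had 93.1, 1922 and 4565 CPM in LP, against 10.1, 77.9 and 36.2 CPM in ML (log2 fold change 4.73 ± 0.95, adjusted p = 0.0010). Csn1s1, alpha-S1-casein, had 82.2, 1625 and 2775 CPM in LP, against 20.1, 59.1 and 33.6 CPM in ML (log2 fold change 4.18 ± 0.97, adjusted p = 0.0031). Csn1s2a had 19.9, 979.6 and 2433 CPM in LP, against 3.80, 51.3 and 23.5 CPM in ML (log2 fold change 4.40 ± 0.92, adjusted p = 0.0014). Each of these caseins was higher in LP than in ML of the same mouse in all 3 mice, and LP of mouse 1 was far below LP of mice 2 and 3. For Csn1s2a LP of mouse 1 lay below ML of mice 2 and 3, so the populations overlapped, whereas they did not for Csn2 and Csn1s1. Csn3, kappa-casein, varied less, with 1029.6, 2224 and 1802 CPM in LP, against 21.1, 41.9 and 19.8 CPM in ML (log2 fold change 5.94 ± 0.68, adjusted p = 6.0e-06). Lalba, the lactose synthase regulator alpha-lactalbumin, had 36.02, 180.1 and 289.6 CPM in LP, against 0.158, 5.92 and 2.22 CPM in ML (log2 fold change 6.04 ± 0.63, adjusted p = 2.5e-06), again lowest in mouse 1. Wap, whey acidic protein, was present mainly in LP of mouse 3, with 0, 0.111 and 24.2 CPM in LP, against 0, 0 and 0.128 CPM in ML (ratio of summed levels 165, 95% counting interval 55.9 to 802).

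Other parts of the secretory programme were high in all 3 LP libraries. Trf, the iron carrier transferrin, had 3578, 9748 and 8167 CPM in LP, against 81.2, 167 and 105.3 CPM in ML (log2 fold change 5.87 ± 0.46, adjusted p = 1.7e-07). Mfge8, a coat protein of the milk fat globule, had 3207, 5045 and 4158 CPM in LP, against 99.5, 113 and 199 CPM in ML (log2 fold change 4.94 ± 0.37, adjusted p = 1.0e-07). Btn1a1, butyrophilin of the fat globule membrane, had 667, 1539 and 509 CPM in LP, against 14.7, 32.9 and 8.26 CPM in ML (log2 fold change 5.64 ± 0.51, adjusted p = 5.8e-07). Neither Trf nor Mfge8 nor Btn1a1 overlapped between the populations. Xdh, xanthine dehydrogenase, which partners butyrophilin, rose by 4.90 ± 0.39. The one member that went the other way, Aqp5, had 54.03, 85.5 and 78.5 CPM in LP, against 379, 222 and 257 CPM in ML (log2 fold change -1.98 ± 0.39, adjusted p = 9.5e-04), and it was not called without the mouse block.

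Genes of innate defence came next. Of 43 tested, 30 were higher in LP and 3 were lower, with a median of 2.73 (2.93 with members at their bound). By role, 6 of 11 sensors, 10 of 14 effectors, 9 of 12 cytokines and 5 of 6 complement genes were higher in LP. Lcn2, lipocalin-2, which withholds iron from bacteria, had 4316, 2715 and 1513 CPM in LP, against 41.3, 34.9 and 97.2 CPM in ML (log2 fold change 5.59 ± 0.57, adjusted p = 1.7e-06). C3, the central complement component, had 457, 2249 and 2835 CPM in LP, against 9.34, 30.2 and 38.2 CPM in ML (log2 fold change 6.04 ± 0.43, adjusted p = 6.3e-08). Cxcl1, a chemokine for neutrophils, had 2714, 1045 and 279 CPM in LP, against 37.7, 23.9 and 9.80 CPM in ML (log2 fold change 5.54 ± 0.36, adjusted p = 2.9e-08). All 3 were separated between the populations, yet their order among LP libraries differed: mouse 1 was highest for Lcn2 and Cxcl1 and lowest for C3. Cxcl2 and Csf3 had the same order of mice as Cxcl1 in LP. Cxcl2 had 2238, 371 and 141 CPM in LP, against 22.2, 4.75 and 4.02 CPM in ML (log2 fold change 6.03 ± 0.40, adjusted p = 3.6e-08). Csf3, granulocyte colony-stimulating factor, had 1244, 169 and 77.7 CPM in LP, against 13.3, 3.25 and 4.32 CPM in ML (log2 fold change 5.54 ± 0.57, adjusted p = 2.0e-06). Neither overlapped between the populations. Lbp, which hands lipopolysaccharide to CD14, had 42.3, 130.3 and 111 CPM in LP, against 2.69, 3.67 and 1.71 CPM in ML (log2 fold change 5.16 ± 0.40, adjusted p = 1.7e-07). Tlr2, a receptor for bacterial lipoproteins, had 45.3, 36.9 and 36.7 CPM in LP, against 3.64, 1.25 and 3.12 CPM in ML (log2 fold change 3.93 ± 0.31, adjusted p = 1.7e-07).

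The 3 defence genes lower in LP were Il33, Il18 and Myd88. Il33, an alarmin cytokine, had 0.617, 2.67 and 0.429 CPM in LP, against 28.03, 12.8 and 7.87 CPM in ML (log2 fold change -3.68 ± 0.66, adjusted p = 4.2e-04). Il18, an interleukin of the inflammasome, had 0.123, 0.334 and 0 CPM in LP, against 1.90, 2.17 and 4.15 CPM in ML (log2 fold change -4.44 ± 0.98, adjusted p = 0.0019). Myd88, the adaptor of the Toll-like receptors, had 52.3, 68.5 and 61.1 CPM in LP, against 101, 116 and 87.9 CPM in ML (log2 fold change -0.76 ± 0.24, adjusted p = 0.019). None of the 3 overlapped between the populations. S100a8 had 78 counts over the LP libraries and 0 over the ML libraries, at least 32.4-fold higher in LP when 3 counts over the ML libraries are taken as the floor. Summed over 20 immune cell markers, levels were 8.34 to 15.2 CPM in LP and 4.96 to 5.67 CPM in ML, with Cd3d, Cd3e, Cd3g and Ms4a1 among those at 0 counts in both. Of the 7 immune markers tested, Cd68 and Cd79a were higher in LP and Itgam was lower, and the part of immune cells in the defence genes was not tested.

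Antigen presentation leaned the other way for class I. Of 10 class I genes, 5 were lower in LP and the others were not called, and of 7 class II genes 2 were higher and 2 lower. B2m, the light chain of class I molecules, had 451, 714 and 797 CPM in LP, against 1143, 1919 and 1827 CPM in ML (log2 fold change -1.32 ± 0.23, adjusted p = 3.4e-04). Psmb9, an immunoproteasome subunit, had 3.70, 10.8 and 24.5 CPM in LP, against 24.4, 39.8 and 24.2 CPM in ML (log2 fold change -1.54 ± 0.43, adjusted p = 0.010). H2-DMa, a peptide-loading chaperone of class II, had 1.604, 0.556 and 0.306 CPM in LP, against 5.38, 8.68 and 3.98 CPM in ML (log2 fold change -3.000 ± 0.48, adjusted p = 1.5e-04). B2m and H2-DMa were separated and Psmb9 overlapped in LP of mouse 3. Cd74, the class II invariant chain, was low in both populations, with 5.67, 5.56 and 6.56 CPM in LP, against 0.475, 1.501 and 1.58 CPM in ML, and was higher in LP (log2 fold change 2.37 ± 0.52, adjusted p = 0.0021). Without mouse 1 the number lower in LP over both classes was 3, against 7 with all mice. Without LP or ML of mouse 1 or without the mouse block it was 4. Reads of the H2 genes may be shared among near-identical copies.

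In ML the hormone receptors stood out. Esr1, oestrogen receptor alpha, had 32.3, 31.2 and 17.1 CPM in LP, against 267, 259 and 166 CPM in ML, so it was 8.67-fold lower in LP (log2 fold change -3.12 ± 0.39, adjusted p = 1.6e-05). Pgr, the progesterone receptor, had 32.6, 44.03 and 19.3 CPM in LP, against 342, 431 and 159 CPM in ML (log2 fold change -3.27 ± 0.46, adjusted p = 4.5e-05). Prlr, the prolactin receptor, had 418, 569.8 and 415 CPM in LP, against 5094, 5557 and 4779 CPM in ML, or 11.2-fold less in LP (log2 fold change -3.48 ± 0.39, adjusted p = 4.6e-06). No LP library reached an ML library for any of these receptors, and mouse 3 had the lowest Esr1 and Pgr in both populations. Per length, in reads-per-kilobase-per-million (RPKM), the level of Prlr was 34.9 RPKM in LP and 383 in ML. The same measure for Kit was 140.0 in LP and 2.27 in ML.

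Foxa1 opens chromatin for the oestrogen receptor, and it had 29.7, 45.1 and 38.5 CPM in LP, against 290.3, 359 and 417 CPM in ML (log2 fold change -3.24 ± 0.33, adjusted p = 1.9e-06). Its promoter is shown because Foxa1 is itself a forkhead factor and its window holds a forkhead motif, TGTTTAC, printed in capitals as it reads on the opposite strand. The window lies at chr12:57546062-57546361 on the minus strand, and the match begins 141 bases before the start.
Foxa1: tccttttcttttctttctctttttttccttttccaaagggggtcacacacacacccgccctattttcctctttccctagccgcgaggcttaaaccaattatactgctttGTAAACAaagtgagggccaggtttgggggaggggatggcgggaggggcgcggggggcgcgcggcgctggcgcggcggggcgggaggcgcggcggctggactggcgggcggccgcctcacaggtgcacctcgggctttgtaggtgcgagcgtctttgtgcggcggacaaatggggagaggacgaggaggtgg
A forkhead match was present in 2.81% of windows of genes at least 2-fold higher in LP, 3.04% of those of genes at least 2-fold lower in LP and 2.6% of all. The ETS motif AGGAAG was in 34.3% of windows of genes higher in LP, 31.3% of those lower in LP and 33.4% of all. The GATA motif AGATAA was in 6.64% of windows of genes higher in LP, 7.14% of those lower in LP and 6.83% of all. The RUNX motif TGTGGT was in 12.3% of windows of genes higher in LP, 12.7% of those lower in LP and 12.6% of all. Shares thus differed little between genes of either direction, and none of these differences was tested. These windows and motifs were chosen after gene values were seen.

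Cited1, a co-activator that binds the oestrogen receptor, had 48.2, 41.8 and 30.5 CPM in LP, against 848, 588 and 574 CPM in ML (log2 fold change -4.08 ± 0.30, adjusted p = 8.5e-08). Ly6a, the Sca-1 antigen, had 24.2, 26.8 and 29.4 CPM in LP, against 245, 357 and 237 CPM in ML (log2 fold change -3.40 ± 0.40, adjusted p = 7.0e-06). Prom1, CD133, had 50.3, 28.02 and 15.6 CPM in LP, against 796, 406 and 263 CPM in ML (log2 fold change -3.97 ± 0.47, adjusted p = 7.5e-06). These markers of hormone-sensing cells were separated in every mouse. Fxyd2, a subunit of the sodium pump, was 17.4-fold lower in LP, with 6.79, 6.89 and 6.68 CPM in LP, against 166, 114 and 89.8 CPM in ML (log2 fold change -4.12 ± 0.36, adjusted p = 3.6e-07). Stc2, the secreted stanniocalcin-2, had 43.2, 74.8 and 38.4 CPM in LP, against 532, 795 and 433 CPM in ML (log2 fold change -3.49 ± 0.42, adjusted p = 8.8e-06). Gata3, the factor that luminal cells of both kinds need, had 148, 195 and 145 CPM in LP, against 161, 223 and 186 CPM in ML and was not called (log2 fold change -0.23 ± 0.25, adjusted p = 0.50).

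Across 26 tested nuclear hormone receptors and cofactors, 6 were higher in LP and 5 lower, close to the shares of all genes. Those higher in LP were not the sex steroid receptors. Nr3c1, the glucocorticoid receptor, had 176, 161 and 132 CPM in LP, against 26.4, 14.8 and 16.6 CPM in ML (log2 fold change 3.04 ± 0.28, adjusted p = 5.9e-07). Vdr, the vitamin D receptor, had 334, 209 and 142 CPM in LP, against 38.2, 42.9 and 66.99 CPM in ML (log2 fold change 2.12 ± 0.30, adjusted p = 5.1e-05). Thrb, thyroid hormone receptor beta, had 24.8, 17.7 and 11.4 CPM in LP, against 0.792, 2.42 and 1.97 CPM in ML (log2 fold change 3.37 ± 0.49, adjusted p = 5.6e-05). LP was above ML in every mouse for all 3, without overlap. Cyp24a1, the enzyme that breaks down active vitamin D and a known target of VDR, had 17.5, 11.6 and 5.21 CPM in LP and 0 counts in every ML library, at least 137.6-fold higher in LP.

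Downstream of the prolactin receptor genes lay on both sides. Of 16 genes of prolactin and STAT5 signalling, 4 were higher in LP, Elf5 with the widest difference, and 6 lower. Stat5a had 61.6, 116 and 149 CPM in LP, against 168, 174 and 86.5 CPM in ML and Stat5b had 68.2, 119 and 140.1 CPM in LP, against 98.7, 83.1 and 79.1 CPM in ML. Neither was called (log2 fold changes -0.49 ± 0.31, adjusted p = 0.23 and 0.22 ± 0.28, adjusted p = 0.57), and the populations overlapped. Both rested on single mice: the sign of each turned without 1 mouse, Stat5a was called lower in LP without mouse 3 (adjusted p = 0.011) or its ML library (adjusted p = 0.0067), and Stat5b was called higher without ML of mouse 1 (adjusted p = 0.033). Jak2, the kinase of the receptor, had 123, 103 and 111 CPM in LP, against 261, 258 and 148 CPM in ML (log2 fold change -0.95 ± 0.23, adjusted p = 0.0041). Inhibitors of the pathway were lower in LP in 4 of 6 cases. Socs2 was at 38.4, 14.01 and 11.2 CPM in LP, against 44.03, 48.0 and 43.7 CPM in ML (log2 fold change -1.28 ± 0.30, adjusted p = 0.0030). Cav1, caveolin-1, at 16.8, 14.2 and 7.601 CPM in LP, against 134, 109.5 and 54.4 CPM in ML (log2 fold change -2.95 ± 0.40, adjusted p = 3.3e-05). The lowest ML library was above the highest LP library for Jak2, Socs2 and Cav1. Nfib, a partner of STAT5 on milk genes, was higher in LP, with 440.4, 936 and 815 CPM in LP, against 185, 235 and 200.2 CPM in ML (log2 fold change 1.75 ± 0.21, adjusted p = 1.0e-05). Without mouse 2 the list gave 2 genes higher and 3 lower, and without ML of mouse 2 it gave 2 higher.

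In the RANK, EGFR and Notch pathways at least 1 ligand was higher in ML and a receptor higher in LP, while other ligands of EGFR relatives and of Notch were higher in LP. In basal libraries of the same mice Jag1 averaged 667 CPM, Egfr 254 CPM and Tnfrsf11a 25.1 CPM, so none of these was particular to luminal cells. Tnfsf11, Areg and Notch1 averaged 0.0771, 6.98 and 114 CPM there. Tnfsf11, RANK ligand, had 0.123, 19.7 and 0.306 CPM in LP, against 2.85, 221 and 8.43 CPM in ML (log2 fold change -3.89 ± 0.80, adjusted p = 0.0012). Tnfrsf11a, its receptor RANK, had 9.499, 28.9 and 29.2 CPM in LP, against 0.158, 0.5005 and 0.257 CPM in ML, a 78.6-fold difference (log2 fold change 6.30 ± 0.47, adjusted p = 1.0e-07). The receptor was separated between the populations. The ligand was higher in ML than in LP of each mouse, but mouse 2 exceeded the other mice in both populations, so that LP of mouse 2 lay above ML of mice 1 and 3. Without the mouse block Tnfsf11 was not called (adjusted p = 0.084). Of 18 genes of RANK signalling, 8 were higher in LP and 3 lower. Nfkbia, the inhibitor and target of NF-kappa-B, had 949, 1507 and 1362 CPM in LP, against 422, 336 and 227 CPM in ML (log2 fold change 1.98 ± 0.25, adjusted p = 1.3e-05). Nfkb1 had 627, 319 and 245 CPM in LP, against 140.0, 121 and 109 CPM in ML (log2 fold change 1.58 ± 0.21, adjusted p = 2.9e-05).

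Areg, amphiregulin, the oestrogen-induced ligand of EGFR, had 121, 139 and 64.5 CPM in LP, against 1519.7, 1754 and 725 CPM in ML (log2 fold change -3.59 ± 0.37, adjusted p = 1.8e-06). Egfr had 151, 154 and 127 CPM in LP, against 1.58, 3.003 and 1.03 CPM in ML, an 82.8-fold difference (log2 fold change 6.37 ± 0.41, adjusted p = 2.9e-08). Ligand and receptor were thus on opposite sides, and neither overlapped between the populations. Epgn, epigen, another EGFR ligand, was also lower in LP, at 35.04, 15.01 and 12.1 CPM in LP, against 134, 95.7 and 48.3 CPM in ML (log2 fold change -2.19 ± 0.23, adjusted p = 3.0e-06). Hbegf went the other way, with 289, 343 and 181 CPM in LP, against 52.3, 54.4 and 57.6 CPM in ML (log2 fold change 2.28 ± 0.24, adjusted p = 2.2e-06). So did the neuregulins Nrg1, with 91 counts over the LP libraries, most of them from mouse 1, and 1 over the ML libraries, and Nrg2, with 44 counts in LP and 2 in ML. Of 10 ligands tested, 3 were higher in LP and 3 lower. Erbb2, the co-receptor without a ligand, was slightly lower in LP, at 105.4, 83.3 and 90.1 CPM in LP, against 124, 159 and 175 CPM in ML (log2 fold change -0.73 ± 0.23, adjusted p = 0.020). Erbb4, a neuregulin receptor, was higher, at 50.8, 26.7 and 15.02 CPM in LP, against 2.69, 0.250 and 4.62 CPM in ML (log2 fold change 3.93 ± 0.82, adjusted p = 0.0014). Erbb3 was not called (log2 fold change -0.81 ± 0.39, adjusted p = 0.11). In all, 7 of 16 ErbB genes were higher in LP and 4 lower, and the fit of the 6 libraries alone gave 4 higher.

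**Figure D3:**
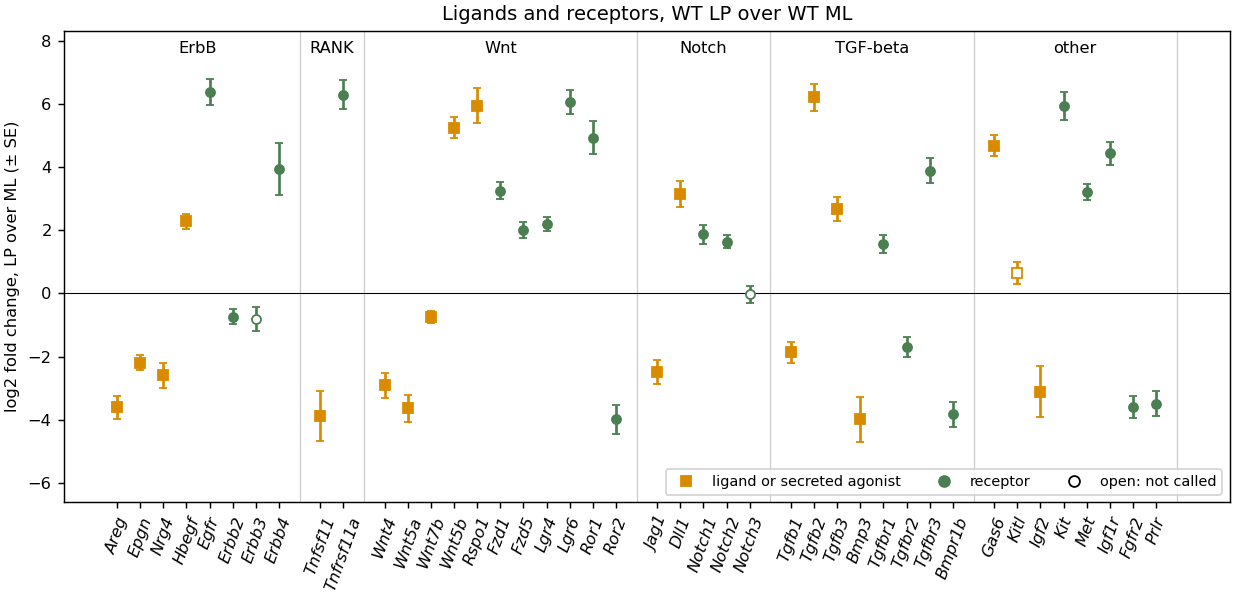
Log2 fold change of LP over ML (y axis, bars ± SE) for ligands or secreted agonists (squares) and receptors (circles) of 6 groups, with open symbols for genes not called. Areg, Tnfsf11, Wnt4, Wnt5a and Jag1 lie below 0 while Egfr, Tnfrsf11a, Lgr6 and Notch1 lie above 0. Genes shown were chosen after their values were seen.

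Wnt genes were divided within each role. Of 46 tested, 19 were higher in LP and 11 lower. Wnt4, the progesterone-induced ligand, had 32.7, 56.7 and 26.4 CPM in LP, against 239.6, 490.1 and 168 CPM in ML (log2 fold change -2.90 ± 0.40, adjusted p = 3.4e-05). Wnt5a had 8.51, 9.78 and 8.28 CPM in LP, against 129, 104 and 94.96 CPM in ML (log2 fold change -3.64 ± 0.44, adjusted p = 1.1e-05). Wnt5b had 326, 207 and 189 CPM in LP, against 7.29, 5.005 and 6.54 CPM in ML (log2 fold change 5.25 ± 0.32, adjusted p = 2.7e-08). Each of these 3 ligands was separated between the populations, Wnt5a and Wnt5b in opposite directions. The receptors of non-canonical Wnt signalling were split likewise, for Ror1 had 23.4, 22.3 and 25.4 CPM in LP, against 0.634, 0.250 and 1.33 CPM in ML (log2 fold change 4.93 ± 0.53, adjusted p = 3.1e-06). Ror2 had 1.73, 0.556 and 2.51 CPM in LP, against 25.2, 20.1 and 27.8 CPM in ML (log2 fold change -3.98 ± 0.46, adjusted p = 6.0e-06). Rspo1, an R-spondin that amplifies Wnt signals, had 15.1, 66.7 and 171 CPM in LP, against 0, 1.67 and 1.84 CPM in ML (log2 fold change 5.94 ± 0.56, adjusted p = 8.3e-07). Lgr6, a receptor for R-spondins, had 61.2, 104.6 and 56.1 CPM in LP, against 0.475, 1.501 and 1.24 CPM in ML (log2 fold change 6.06 ± 0.39, adjusted p = 2.9e-08). Lgr4 had 55.9, 69.4 and 66.5 CPM in LP, against 12.8, 14.3 and 14.8 CPM in ML (log2 fold change 2.19 ± 0.23, adjusted p = 2.1e-06). Ligand and receptors were thus on the LP side, and Rspo1 was lowest in mouse 1 in both populations. Axin2, the common target of canonical Wnt signalling, was low in both, with 2.47, 4.34 and 8.52 CPM in LP, against 0.158, 1.001 and 1.03 CPM in ML (log2 fold change 2.75 ± 0.38, adjusted p = 3.2e-05), and the effector Tcf7l2 had 97.7, 365 and 175 CPM in LP, against 18.7, 25.4 and 22.1 CPM in ML (log2 fold change 3.09 ± 0.29, adjusted p = 9.6e-07). Without mouse 2 the number of Wnt genes lower in LP was 7.

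Notch targets were on the LP side, as were 2 of 4 receptors, and ligands lay on both sides. Of 27 genes, 11 were higher in LP and 5 lower, and all 6 targets on the list were higher in LP. Notch1 had 230.0, 556 and 535 CPM in LP, against 121, 109 and 112 CPM in ML (log2 fold change 1.87 ± 0.31, adjusted p = 1.8e-04). Notch2 had 205, 204 and 137 CPM in LP, against 55.9, 71.8 and 47.1 CPM in ML (log2 fold change 1.64 ± 0.22, adjusted p = 2.4e-05). Notch3 was not called (log2 fold change -0.03 ± 0.27, adjusted p = 0.96). Jag1 had 14.6, 14.8 and 15.7 CPM in LP, against 64.3, 100.3 and 81.9 CPM in ML (log2 fold change -2.48 ± 0.37, adjusted p = 8.1e-05). Dll1, another ligand, was higher in LP, with 6.54, 9.23 and 5.52 CPM in LP, against 2.22, 0.417 and 0.428 CPM in ML (log2 fold change 3.14 ± 0.41, adjusted p = 2.4e-05), at levels far below the 801, 727 and 652 CPM of basal cells. None of Notch1, Notch2, Jag1 and Dll1 overlapped between the populations. Dll3 was also called higher in LP, from 11 counts over the LP libraries and 0 over the ML libraries. Among the targets, Nrarp had 77.2, 25.2 and 21.9 CPM in LP, against 7.29, 4.59 and 5.48 CPM in ML (log2 fold change 2.65 ± 0.30, adjusted p = 4.5e-06). Hey2 had 6.04, 15.9 and 5.52 CPM in LP, against 0, 0 and 0.299 CPM in ML (log2 fold change 5.74 ± 0.77, adjusted p = 2.5e-05). Dtx1, with 180 counts in LP and 3 in ML over the group, had a ratio of 74.8 (95% counting interval 25.2 to 366). Maml2, a co-activator of Notch, had 131, 115 and 102 CPM in LP, against 5.07, 6.51 and 5.52 CPM in ML (log2 fold change 4.32 ± 0.30, adjusted p = 5.7e-08). Adam10, the protease that cleaves Notch after ligand binding, was lower in LP, at 160.0, 155 and 119 CPM in LP, against 905, 952 and 629 CPM in ML (log2 fold change -2.52 ± 0.35, adjusted p = 4.4e-05). The number lower in LP was 3 without mouse 1 or without mouse 2.

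Of 34 genes of the TGF-beta and BMP pathway, 11 were higher in LP and 9 lower, and the ligands split by isoform. Tgfb2 had 82.5, 75.9 and 156 CPM in LP, against 1.90, 1.08 and 1.37 CPM in ML (log2 fold change 6.22 ± 0.43, adjusted p = 4.9e-08). Tgfb3 had 103, 369.9 and 378 CPM in LP, against 44.7, 49.0 and 26.6 CPM in ML (log2 fold change 2.68 ± 0.38, adjusted p = 5.0e-05). Tgfb1 was lower in LP, at 9.499, 16.7 and 19.002 CPM in LP, against 51.6, 46.6 and 70.3 CPM in ML (log2 fold change -1.87 ± 0.33, adjusted p = 4.0e-04). The isoforms thus lay on different sides, and none of the 3 overlapped. Receptors did so as well: Tgfbr1 was higher in LP by 1.56 ± 0.30, adjusted p = 6.6e-04, and Tgfbr2 had a log2 fold change of -1.69 ± 0.31, adjusted p = 4.6e-04. Bmpr1b, a BMP receptor, had 3.82, 8.67 and 6.25 CPM in LP, against 71.7, 118 and 69.2 CPM in ML (log2 fold change -3.83 ± 0.39, adjusted p = 1.8e-06). Ltbp1 and Ltbp2, matrix proteins of the fibrillin family of which the first holds latent TGF-beta, rose by 4.79 ± 0.48 and 4.74 ± 0.33.

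Of 24 receptor tyrosine kinases, 12 were higher in LP, 2 were lower and 10 were not called. Met, the receptor for hepatocyte growth factor, had 565, 452 and 253 CPM in LP, against 61.1, 47.3 and 28.1 CPM in ML (log2 fold change 3.21 ± 0.25, adjusted p = 1.7e-07). Igf1r had 180.0, 129.98 and 140.2 CPM in LP, against 4.28, 5.92 and 10.95 CPM in ML (log2 fold change 4.43 ± 0.36, adjusted p = 2.0e-07). Gas6, the ligand of the TAM receptors Tyro3, Axl and Mertk, had 719, 1128 and 903 CPM in LP, against 34.8, 33.4 and 37.2 CPM in ML (log2 fold change 4.68 ± 0.32, adjusted p = 4.7e-08), and Mertk itself was higher in LP by 4.29 ± 0.71, adjusted p = 2.0e-04. Fgfr2 was the large exception, with 85.6, 109 and 91.1 CPM in LP, against 1104, 1256 and 1086 CPM in ML, or 12.1-fold less in LP (log2 fold change -3.59 ± 0.36, adjusted p = 1.5e-06). All of these genes were separated between the populations. Without ML of mouse 3 the number of kinases and ligands lower in LP was 2, against 4. The other receptor lower in LP, Mst1r, was below 2 CPM in every library. Kitl, the ligand of Kit, was expressed in both, with 734, 868 and 308 CPM in LP, against 385, 598 and 243 CPM in ML, and was not called (log2 fold change 0.65 ± 0.36, adjusted p = 0.17). In the IGF axis 8 of 14 genes were higher in LP and Igf2 was lower. Igfbp5, an IGF-binding protein, had 3105, 9588 and 4019 CPM in LP, against 88.7, 236 and 71.0 CPM in ML (log2 fold change 5.41 ± 0.40, adjusted p = 8.8e-08). Irs2, an adaptor of the insulin and IGF receptors, had 217, 182 and 210.0 CPM in LP, against 40.1, 32.8 and 31.1 CPM in ML (log2 fold change 2.55 ± 0.44, adjusted p = 2.7e-04). Without mouse 2, 5 IGF genes were higher, and Igf2 was not called without mouse 1 or without ML of mouse 3.

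**Figure D4:**
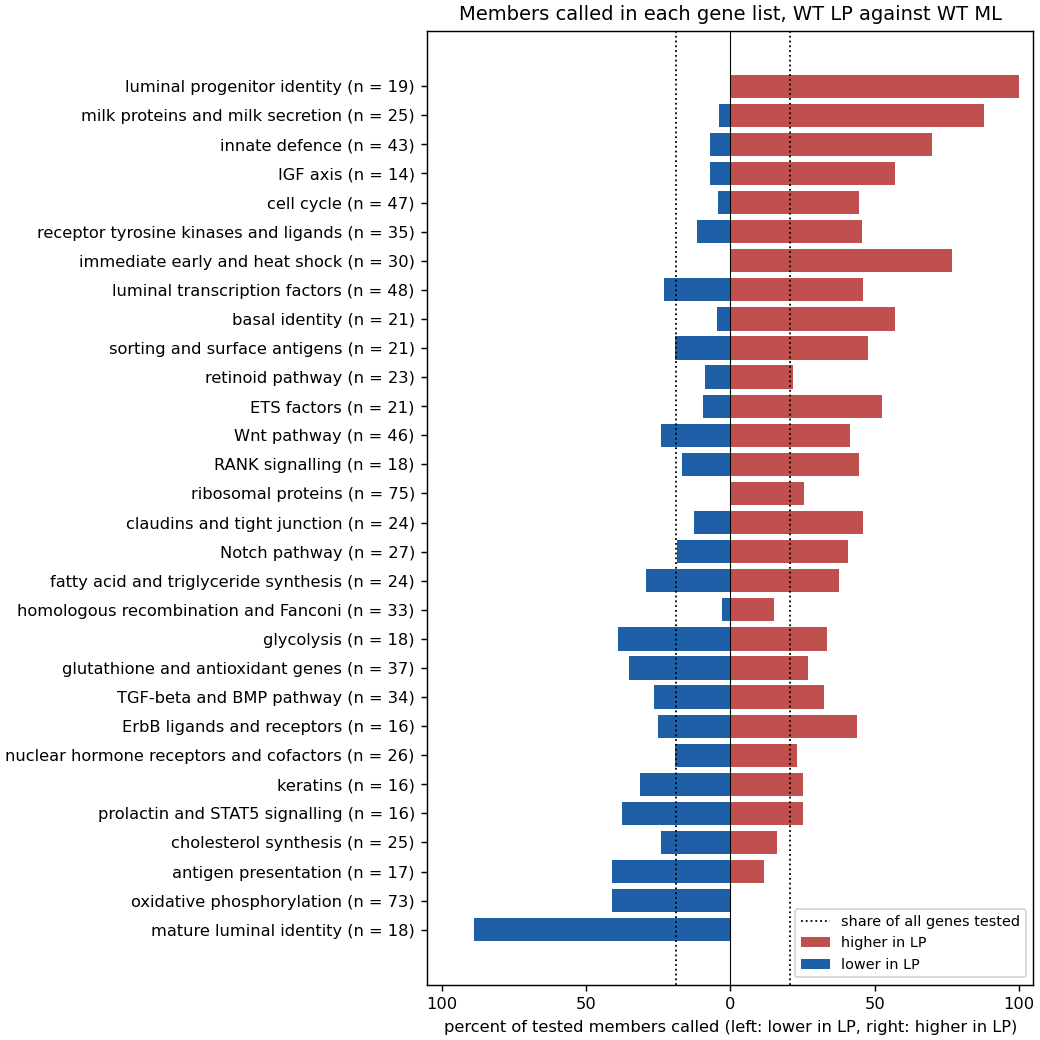
Percent of the tested members of each of 30 gene lists that were called higher in LP (red, to the right) or lower in LP (blue, to the left), lists ordered by median log2 fold change, with dotted lines at the shares over all genes tested, 20.5% and 18.9%. Milk, innate defence, immediate early and heat shock genes reach furthest to the right after luminal progenitor identity, and oxidative phosphorylation and antigen presentation furthest to the left after mature luminal identity.

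The main luminal keratins were not called with edgeR, and other keratins were called in both directions. Krt8 had 6462, 4916 and 4364 CPM in LP, against 4592, 3365 and 3791 CPM in ML and Krt18 had 4165, 2912 and 2375 CPM in LP, against 3144, 2335 and 2329 CPM in ML. Krt19 had 4573, 2299 and 2678 CPM in LP, against 3671, 3578 and 3371 CPM in ML. None of these was called with edgeR (log2 fold changes 0.42 ± 0.21, adjusted p = 0.12 for Krt8, 0.25 ± 0.24, adjusted p = 0.42 for Krt18 and -0.24 ± 0.27, adjusted p = 0.51 for Krt19), and Krt8 and Krt19 were among the 12 most abundant genes per length in ML. With DESeq2 Krt8 was called higher in LP (adjusted p = 0.033), and it was higher in LP in all 3 mice. Krt7 was lower in LP, with 428, 245 and 279 CPM in LP, against 1051, 1041 and 833 CPM in ML (log2 fold change -1.64 ± 0.25, adjusted p = 9.1e-05). Krt4 had 17.9, 10.1 and 5.27 CPM in LP, against 269, 103 and 35.5 CPM in ML (log2 fold change -3.35 ± 0.27, adjusted p = 1.7e-07). Krt6a had 34.05, 24.4 and 21.7 CPM in LP, against 387, 333 and 253 CPM in ML (log2 fold change -3.62 ± 0.34, adjusted p = 8.5e-07), though its reads may be shared with its near-copy Krt6b. Krt23 was among those higher in LP, at 15.1, 8.01 and 16.6 CPM in LP, against 0.317, 0.250 and 1.497 CPM in ML (log2 fold change 4.07 ± 0.50, adjusted p = 1.0e-05). Krt7, Krt4, Krt6a and Krt23 did not overlap between the populations. Of 16 keratins tested, 4 were higher in LP and 5 lower, and without mouse 3 or either of its libraries 2 were higher.

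Claudins, the sealing proteins of tight junctions, split in a similar way, with 4 of 12 higher in LP and 3 lower. Cldn1 had 595, 129.98 and 79.1 CPM in LP, against 5.38, 3.50 and 1.20 CPM in ML (log2 fold change 6.002 ± 0.37, adjusted p = 2.7e-08). Cldn10 had 10.7, 11.01 and 6.38 CPM in LP, against 155, 164 and 89.6 CPM in ML (log2 fold change -3.85 ± 0.22, adjusted p = 2.6e-08). Cldn6 had 1.73, 3.34 and 0.552 CPM in LP, against 38.6, 51.3 and 37.8 CPM in ML (log2 fold change -4.74 ± 0.44, adjusted p = 7.1e-07). Cldn8 had 11.2, 38.5 and 33.96 CPM in LP, against 55.9, 108 and 118 CPM in ML (log2 fold change -1.85 ± 0.25, adjusted p = 3.1e-05). Cldn3, Cldn4 and Cldn7, the most abundant claudins in CPM, were not called. All 4 called claudins named here were separated between the populations. Of 12 other junction and polarity genes 7 were higher in LP and the others were not called, among them Cgnl1, paracingulin, by 1.62 ± 0.27, adjusted p = 2.2e-04 and the polarity gene Pard6b by 2.05 ± 0.33, adjusted p = 1.7e-04.

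Basal genes were measured as a check on the sort. Of 21 basal identity genes, 12 were higher in LP and Cdh3 was lower. Their summed level was 783 to 940 CPM in LP libraries and 482 to 744 CPM in ML libraries, against 28084 to 33149 CPM in the basal libraries of the same mice. Lama3, a laminin chain of the basement membrane, had 186, 149 and 94.1 CPM in LP, against 5.54, 4.09 and 6.16 CPM in ML (log2 fold change 4.72 ± 0.30, adjusted p = 2.9e-08). Lamb3, which joins it in laminin-332, had 111, 136 and 116 CPM in LP, against 19.96, 14.1 and 26.9 CPM in ML (log2 fold change 2.61 ± 0.24, adjusted p = 8.0e-07). Oxtr, the oxytocin receptor, had 6.41, 24.2 and 24.8 CPM in LP, against 1.58, 1.42 and 1.37 CPM in ML (log2 fold change 3.70 ± 0.37, adjusted p = 1.4e-06). These 3 genes did not overlap. The defining keratins were low in both, as Krt5 had 3.45, 1.78 and 2.57 CPM in LP, against 3.48, 2.50 and 1.92 CPM in ML and Krt14 had 12.5, 5.67 and 19.7 CPM in LP, against 6.97, 2.34 and 2.22 CPM in ML, while Krt14 reached 8643, 5323 and 5234 CPM in the 3 basal libraries. The number of basal genes higher in LP was 7 without mouse 3, without either of its libraries and in the fit of the 6 libraries alone, and the part of basal cells in it was not tested.

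Markers of other cell types were low. Of 12 fibroblast markers, 2 were higher in LP and 2 lower. Their sum was 35.6 to 60.7 CPM in LP and 58.1 to 278 CPM in ML, where Dcn, decorin, made up most of it in mice 2 and 3, with 8.39, 17.1 and 22.7 CPM in LP, against 18.1, 157 and 265 CPM in ML. Col1a2, made by fibroblasts, was at 11.2, 1.45 and 0.306 CPM in LP, against 7.602, 1.75 and 1.15 CPM in ML and was not called (log2 fold change 0.02 ± 0.73, adjusted p = 1.00). For 14 endothelial and pericyte markers, 3 higher and 1 lower in LP, the sum was 227 to 290 CPM in LP and 254 to 360 CPM in ML, mostly Notch3. The 3 became 1 without mouse 3 or either of its libraries and 0 in the fit of the 6 libraries. Pecam1 was at 7.65, 5.78 and 3.25 CPM in LP, against 6.97, 4.42 and 5.35 CPM in ML. Adipocyte markers summed to 9.99 to 21.5 CPM in LP and 5.17 to 8.08 CPM in ML, with Adipoq at 0 counts in both and 1 of 4 tested, Fabp4, higher in LP, though not without the mouse block, mouse 1 or its LP library, or mouse 2 or its ML library. Blood and skeletal muscle markers, 4 of 8 tested being lower in LP, summed to 5.67 to 10.8 CPM in LP and 19.3 to 36.1 CPM in ML, and 2 were lower without the mouse block, mouse 2 or its ML library, or LP of mouse 3. The part of such cells in the other differences was not tested.

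Genes of fatty acid and cholesterol synthesis were called in both directions, with list medians of 0.38 and -0.20, beside 0.01 for all genes. Of 24 genes of fatty acid and triglyceride synthesis, 9 were higher in LP and 7 lower. Fads2, a fatty acid desaturase, had 143, 272 and 295 CPM in LP, against 7.13, 8.17 and 16.1 CPM in ML (log2 fold change 4.49 ± 0.32, adjusted p = 6.2e-08). Fads1 had 188, 385 and 338 CPM in LP, against 13.6, 12.2 and 18.3 CPM in ML (log2 fold change 4.33 ± 0.34, adjusted p = 1.7e-07). Scd2, a stearoyl-CoA desaturase, was lower in LP, with 15.8, 50.7 and 28.6 CPM in LP, against 229.7, 351 and 273 CPM in ML (log2 fold change -3.37 ± 0.40, adjusted p = 8.8e-06). Dgat2, the last enzyme of triglyceride synthesis, had 21.7, 19.7 and 21.6 CPM in LP, against 162, 147 and 183 CPM in ML (log2 fold change -2.97 ± 0.38, adjusted p = 1.7e-05). Dgat1 was not called (log2 fold change 0.38 ± 0.22, adjusted p = 0.17). The 4 called genes were separated between the populations. Without mouse 1, without LP of mouse 1 or without the mouse block 3 genes of this list were lower, and 4 without mouse 2 or without ML of mouse 1. In cholesterol synthesis 4 of 25 were higher and 6 lower, near the shares of 20.5% and 18.9% over all genes. The 6 became 3 without mouse 1 or without LP of mouse 2 or 3. The 4 became 2 without mouse 3, without either of its libraries, without the mouse block or in the fit of the 6 libraries.

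In glycolysis, 6 of 18 genes were higher in LP and 7 lower, and isozymes went opposite ways. Pfkp, the platelet phosphofructokinase, had 221, 88.1 and 54.7 CPM in LP, against 14.1, 18.9 and 17.5 CPM in ML (log2 fold change 2.64 ± 0.35, adjusted p = 2.6e-05). Pfkm, the muscle form, had 14.8, 21.2 and 26.1 CPM in LP, against 29.8, 39.8 and 55.7 CPM in ML (log2 fold change -1.01 ± 0.19, adjusted p = 5.6e-04). Ldhb, a lactate dehydrogenase chain, had 26.3, 30.8 and 33.3 CPM in LP, against 0.9503, 2.50 and 6.80 CPM in ML (log2 fold change 3.20 ± 0.43, adjusted p = 3.0e-05). Ldha was not called (log2 fold change 0.43 ± 0.26, adjusted p = 0.20). Hk2, hexokinase 2, had 73.9, 72.7 and 47.7 CPM in LP, against 282, 247 and 129 CPM in ML (log2 fold change -1.71 ± 0.26, adjusted p = 9.1e-05). Pfkp, Pfkm, Ldhb and Hk2 did not overlap. Without mouse 2, 4 genes were lower. Of 23 retinoid pathway genes, 5 were higher in LP, among them Crabp2, a retinoic acid carrier, with 63.7, 69.9 and 26.2 CPM in LP, against 4.43, 2.50 and 2.95 CPM in ML (log2 fold change 3.91 ± 0.38, adjusted p = 1.2e-06), and 2 lower. Of these, Rara, a retinoic acid receptor, had a log2 fold change of -0.98 ± 0.19, adjusted p = 9.7e-04.

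Oxidative phosphorylation differed by a small amount in many genes. Of 73 nuclear genes for its subunits, 30 were lower in LP and 0 higher, with a median of -0.63, beside 0.01 for all genes. No member was higher with edgeR even at an unadjusted p under 0.05, or with DESeq2 or limma voom (0 in each). Ndufc1, of complex I, had 5.55, 6.56 and 7.601 CPM in LP, against 26.3, 20.1 and 23.2 CPM in ML (log2 fold change -1.81 ± 0.30, adjusted p = 2.2e-04). Ndufa7 had 27.5, 29.5 and 41.4 CPM in LP, against 76.0, 76.0 and 109 CPM in ML (log2 fold change -1.41 ± 0.26, adjusted p = 5.0e-04). Cox8a, of complex IV, had 69.7, 71.3 and 73.4 CPM in LP, against 164, 153 and 166 CPM in ML (log2 fold change -1.17 ± 0.22, adjusted p = 5.4e-04). Every ML library was above every LP library in these 3. The count of genes lower in LP rested on every mouse: it was 9 without mouse 1, 11 without mouse 2 and 12 without mouse 3, and 11 to 19 without LP of mouse 1 or 2 or any 1 ML library. The highest over all alternatives was 41. Over those alternatives the median stayed between -0.76 and -0.53. The 13 proteins encoded by the mitochondrial genome, looked at after this list was seen, had log2 fold changes of -0.86 to -0.12, with 5 lower in LP and the others not called. CYTB, cytochrome b, had 2978, 2830.1 and 2751 CPM in LP, against 5349.6, 5051 and 4775 CPM in ML (log2 fold change -0.82 ± 0.21, adjusted p = 0.0062), without overlap, and COX1 was not called (log2 fold change -0.12 ± 0.22, adjusted p = 0.69).

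Of 75 ribosomal protein genes, 19 were higher in LP, beside 20.5% of all genes, 0 were lower and the others were not called. Their median was 0.51, and the number lower was also 0 with edgeR at an unadjusted p under 0.05, DESeq2 and limma voom. Rpl12 had 54.2, 60.5 and 75.2 CPM in LP, against 23.6, 24.3 and 24.3 CPM in ML (log2 fold change 1.40 ± 0.25, adjusted p = 3.6e-04). Rpl10a had 155, 134 and 118 CPM in LP, against 79.8, 72.2 and 48.5 CPM in ML (log2 fold change 1.04 ± 0.20, adjusted p = 8.6e-04), both without overlap. The number higher ran from 7 without mouse 2 to 34 in the fit of the 6 libraries alone, and was 10 without mouse 1, 11 without mouse 3 and 8 to 10 without LP of mouse 3 or ML of mouse 1 or 2. The median stayed between 0.38 and 0.65. These genes have many processed pseudogenes, and reads may be shared with them.

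Antioxidant genes were divided, with 10 of 37 higher in LP and 13 lower. Glutathione synthesis was on the ML side. Gclc, the catalytic subunit of the first and limiting enzyme, had 161, 59.9 and 57.7 CPM in LP, against 1168, 682 and 431 CPM in ML (log2 fold change -3.12 ± 0.40, adjusted p = 2.0e-05). Gss, the second enzyme, had 15.8, 14.1 and 20.7 CPM in LP, against 33.6, 39.2 and 58.2 CPM in ML (log2 fold change -1.35 ± 0.21, adjusted p = 1.0e-04). Gsr, which regenerates glutathione, had 66.7, 53.3 and 46.3 CPM in LP, against 181, 167 and 152 CPM in ML (log2 fold change -1.61 ± 0.29, adjusted p = 3.9e-04). Gpx3, the secreted glutathione peroxidase, had 58.6, 54.3 and 98.4 CPM in LP, against 994, 760.2 and 1422 CPM in ML, or 15.2-fold less in LP (log2 fold change -3.92 ± 0.33, adjusted p = 2.6e-07). None of these 4 genes overlapped between the populations. On the LP side was Mgst1, a microsomal glutathione transferase, with 312, 464 and 501 CPM in LP, against 34.8, 40.5 and 49.7 CPM in ML (log2 fold change 3.33 ± 0.28, adjusted p = 2.4e-07). So was Nqo1, a quinone reductase and target of NRF2, with 43.3, 69.4 and 29.3 CPM in LP, against 0.475, 2.25 and 3.85 CPM in ML (log2 fold change 4.25 ± 0.49, adjusted p = 6.9e-06). Nfe2l2, the gene for NRF2, was higher in LP by 0.73 ± 0.24, adjusted p = 0.024.

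Of 47 cell cycle genes, 21 were higher in LP and 2 lower, with a median of 1.07. Mitotic genes led, with 14 of 20 higher. Mki67, the proliferation antigen Ki-67, had 103, 33.4 and 66.4 CPM in LP, against 18.5, 7.76 and 8.34 CPM in ML (log2 fold change 2.56 ± 0.40, adjusted p = 1.3e-04). Top2a, the topoisomerase of dividing cells, had 66.7, 25.1 and 43.3 CPM in LP, against 19.01, 7.09 and 9.11 CPM in ML (log2 fold change 1.97 ± 0.29, adjusted p = 5.9e-05). LP was separated from ML for both genes, and mouse 1 was the highest in both populations. Pcna, the replication clamp, had 109.9, 94.96 and 112 CPM in LP, against 36.3, 33.8 and 45.9 CPM in ML (log2 fold change 1.45 ± 0.19, adjusted p = 2.2e-05). Replication genes as a group differed less, 5 of 16 being higher, and of the MCM helicase genes Mcm2 to Mcm7 1, Mcm5, was called (log2 fold change 1.34 ± 0.43, adjusted p = 0.021). Cdk6, the G1 kinase, had 20.4, 42.6 and 27.3 CPM in LP, against 0.475, 0.5005 and 0.0428 CPM in ML (log2 fold change 6.85 ± 0.61, adjusted p = 4.5e-07). Cdk4 was not called (log2 fold change -0.30 ± 0.22, adjusted p = 0.29). The 2 genes lower in LP were the inhibitors Cdkn2a and Cdkn2b, both under 3 CPM in every library, and neither was called in the fit of the 9 WT or of the 6 LP and ML libraries. Without mouse 3, 1 of them was called.

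Genes for homologous recombination and Fanconi repair are of interest because Brca2 is deleted in the knockout mice of the series. Of 33, 5 were higher in LP and 1 lower, in the main fit below the shares of all genes in both directions. Brca2 had 16.4, 25.7 and 35.6 CPM in LP, against 4.75, 7.92 and 15.7 CPM in ML (log2 fold change 1.55 ± 0.30, adjusted p = 7.4e-04), without overlap. Chek1 and Chek2, checkpoint kinases, rose by 1.39 ± 0.29 and 1.85 ± 0.38 on the log2 scale. Brca1 had 2.71, 6.004 and 16.2 CPM in LP, against 12.5, 6.67 and 8.299 CPM in ML and was not called (log2 fold change -0.32 ± 0.49, adjusted p = 0.63). The number higher in LP ran from 3, in the fit of the 9 WT libraries, of the 6 libraries alone or without mouse 2, to 10 with DESeq2. With DESeq2 the share higher was thus above that of all genes, of which 3792 of 16466 were higher. Fancg, the gene lower in LP, was not called without the mouse block, with limma voom, or without mouse 1 or 2.

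Immediate early and heat shock genes, which respond quickly to growth signals, stress and tissue dissociation, were broadly higher in LP. Of 30, 23 were higher and 0 lower, with a median of 1.03. With edgeR at an unadjusted p under 0.05, with DESeq2 and with limma voom 0 were lower as well, and without ML of mouse 2 edgeR called 1 lower. Fosl1, a Fos-related factor, had 298, 146 and 105.3 CPM in LP, against 23.6, 6.84 and 10.4 CPM in ML (log2 fold change 3.76 ± 0.26, adjusted p = 5.2e-08). Egr3 had 56.4, 113 and 132 CPM in LP, against 1.11, 3.42 and 1.20 CPM in ML (log2 fold change 5.88 ± 0.50, adjusted p = 2.9e-07). Ier3 had 1146, 803 and 626 CPM in LP, against 94.6, 86.0 and 97.5 CPM in ML (log2 fold change 3.20 ± 0.27, adjusted p = 3.1e-07). Fos itself, with 4194, 9601 and 6554 CPM in LP, against 3239.5, 3453 and 2553 CPM in ML, differed less (log2 fold change 1.00 ± 0.33, adjusted p = 0.024). Each LP library was above each ML library for all 4. Atf3 and Jund were not called (log2 fold changes 0.02 ± 0.29 and 0.02 ± 0.27). Heat shock genes moved less, 8 of 11 being higher, for example Hspa8, with 1675, 1851 and 2135 CPM in LP, against 679, 965 and 803 CPM in ML (log2 fold change 1.22 ± 0.21, adjusted p = 3.2e-04). The number higher was 15 without mouse 3 or without ML of mouse 3. The sources used here do not state how long the cells were handled before lysis.

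**Figure D5:**
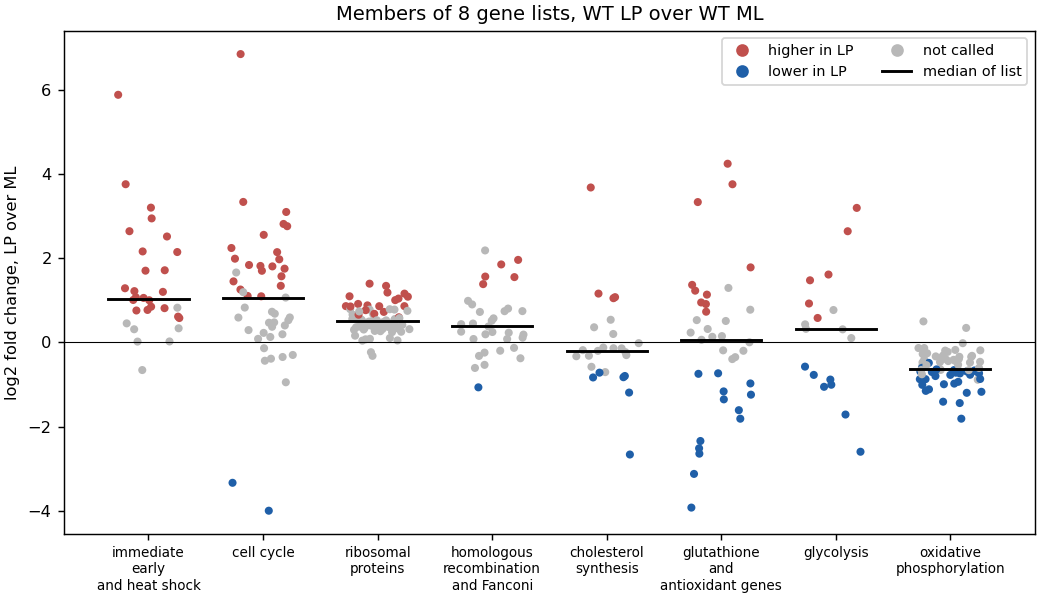
Log2 fold change of LP over ML (y axis) of each tested member of 8 gene lists (x axis), red where higher in LP, blue where lower in LP and grey where not called, with a black line at each list's median. Immediate early and heat shock genes and cell cycle genes lie mostly above 0, ribosomal proteins slightly above it and oxidative phosphorylation genes slightly below it.

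Further genes at the extremes were found by size of change, among genes with a mean of at least 2 CPM in the higher population. They also had to be called, with the same direction in all 3 mice and no overlap of the groups. Ranked by fitted fold change, which is no measure of size where a group is at 0, most of the top rises were in genes with 0 counts in all ML libraries. Slc4a4, a bicarbonate transporter of the basolateral membrane, had 7.28, 5.34 and 3.19 CPM in LP, at least 66.1-fold higher. Acan, aggrecan, the cartilage proteoglycan, had 3.21, 8.67 and 2.33 CPM in LP, at least 59.0-fold higher. Gad1, which makes GABA, had 3.45, 0.667 and 2.70 CPM in LP, at least 32.4-fold higher. All 3 were under 10 CPM in every LP library, and their detection in each of these libraries follows from the rule. Others of this kind included Serpina3i, Bpifb5, Zdbf2, Pcdh10, Sntg2, Fbxl7, Amtn, Stab2 and Slitrk2, with bounds of 27.0-fold (Slitrk2) to 55.3-fold (Bpifb5). Bpifb5 came mostly from mouse 3, with 0.987, 0.334 and 7.48 CPM in LP. In basal libraries of the same mice Serpina3i, Zdbf2 and Pcdh10 averaged 115, 29.5 and 16.2 CPM, against 3.45, 4.21 and 2.79 CPM in LP. Slc4a4, Fbxl7 and Sntg2 also averaged higher in basal than in LP libraries, and Acan, Gad1, Bpifb5, Amtn, Stab2 and Slitrk2 lower. Ugt8a, a galactosyltransferase of myelin lipids, had 6.41, 21.8 and 12.4 CPM in LP and 1 count in ML, a ratio of 561 (95% counting interval 100.2 to 22220).

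Genes that fell included Mmp16, a membrane-bound matrix metalloproteinase, with 0 counts in LP and 5.86, 5.09 and 1.71 CPM in ML, at least 36.9-fold lower in LP. Akr1c13, an aldo-keto reductase, had 0, 0.222 and 0.184 CPM in LP, against 5.70, 5.26 and 7.74 CPM in ML (log2 fold change -5.44 ± 0.74, adjusted p = 2.8e-05). Clca1 had 0.370, 0 and 1.04 CPM in LP, against 13.9, 14.6 and 12.7 CPM in ML (log2 fold change -4.82 ± 0.66, adjusted p = 3.4e-05). Ccdc170, whose gene lies next to Esr1 on chromosome 10, had 0.123, 0.222 and 0.184 CPM in LP, against 1.43, 6.59 and 7.40 CPM in ML (log2 fold change -4.86 ± 0.75, adjusted p = 9.6e-05). Every LP library was at or under 1.04 CPM for these 3, whose separation between the populations follows from the rule. The same rule named Tnr, Dok6, Fmo9, Pcdhb1, Abca8b, Slc35d3, Zmynd12, Aoc1, Cntnap2, Rptn and Fam161a, all under 1 CPM in every LP library. Of these, Dok6 and Cntnap2 lost the call in some alternatives, and Dok6, Fmo9 and Zmynd12 were not tested in every alternative. Among abundant genes, Plet1, a cell-surface protein, ranked behind COX1 and Eef1a1 per length in LP, with 3362 RPKM in LP against 196 RPKM in ML, and had 11603, 4733 and 2283 CPM in LP, against 536, 344 and 208 CPM in ML (log2 fold change 3.85 ± 0.37, adjusted p = 9.3e-07).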

How the data were processed

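RNA was extracted with a miRNeasy micro kit and libraries were made with TruSeq RNA v2, which does not mark strand, per the labels' protocols. The authors deposited raw counts per gene made with featureCounts on mm10, per the submitters' processing notes. No source used here names the aligner, versions or annotation. The 18 libraries' own files hold the same values as the series table.

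Counts were tested with edgeR 4.0.16 (R 4.3.3): filterByExpr, TMM scaling, and a quasi-likelihood fit of 18 libraries with mouse as a block and population within genotype (8 residual degrees of freedom). Mice carry their number in the column names. Deviations of LP and ML from their group means correlated at 0.176 to 0.274 within mouse and at -0.205 to -0.0489 between mice. Deviations cancel out over the mice of a group, so positive values within mouse force lower values between mice, which are no independent baseline. The block takes out differences in level between mice. The p-values thus reflect how differences between populations vary from mouse to mouse, estimated over all 18 libraries. Of 27179 genes, 1904 had no symbol and held 1.6% of counts. Alternatives used RLE scaling, DESeq2 1.42.0, limma 3.58.1, thinning, fewer libraries and no filter. The steps were tested on simulated data.

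Members and lists were chosen with earlier results of these data known. Named genes were a list of key genes, the 15 largest changes in each direction (mean at least 2 CPM, no overlap) and at most the 5 members with the lowest p in each list. Others were chosen after their values were seen. Intervals and floors cover counting error only. Antisense genes cannot be told apart, and paralogs may share reads. Some genes are not reported here.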

Additional observations from a re-analysis of the deposited data

How the results depend on the processing

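Over 17 alternatives the number of genes called ran from 4321 to 7025 (DESeq2), and 65.2% to 99% of the 6484 calls were shared, with 0 in the opposite direction. Leaving out 1 mouse or 1 library gave 4321 to 5255 genes called, of which 2424 to 2836 were higher and 1897 to 2503 lower in LP. Past 2-fold, 2190 to 2374 were higher and 1708 to 2013 lower. The lowest counts came without mouse 2. Without the replicate block, 5591 genes were called, 3014 higher and 2577 lower in LP, and 84.7% of the calls were shared.

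Of 209 genes followed one by one, 195 were called and 179 of these in every alternative that tested them. Calls were lost in at least 1 alternative for Tnfsf11, Cd74, H2-D1, Dok6, Cntnap2, Dhcr7, Cyp51, Brip1, Fancg, Cd79a, Esam, Cdh5, Fabp4, Hba-a1, Hba-a2 and Myh4. Stat5a, Stat5b, Krt8, Lyz2, Csf1r and Emcn were not called but gained a call in some alternatives. The sign turned for 5 uncalled genes when a mouse or a library was left out. Over those settings the log2 fold change ran from -1.03 to 0.0812 for Stat5a, from -0.0923 to 0.743 for Stat5b, from -0.191 to 2.14 for Dpt, from -4.56 to 0.000653 for Lep and from -6.74 to 1.16 for Cidec. Positive values came for Stat5a without mouse 1 or its ML library, for Lep without mouse 3, and for Cidec without mouse 3 or its ML library. Negative values came for Stat5b without mouse 3 or its ML library and for Dpt without LP of mouse 1. The causes were not tested.

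The shallowest library, ML of mouse 1 with 5.97 M counts, limits genes of few counts, and thinning all libraries to 1 depth gave 5908 calls.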

Other observations

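Single mice stood apart from the others in both luminal populations for a few genes. This search was added after the data were seen and is given as values, with no test: of 12786 genes with a mean of at least 2 CPM, those were counted that differed at least 4-fold, on the log2(CPM + 0.5) scale, from both other mice in LP and in ML alike. Mouse 1 had 8 such genes higher and 7 lower, mouse 2 had 2 higher and 3 lower, and mouse 3 had 4 higher and 3 lower.

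Calca, which encodes calcitonin and calcitonin gene-related peptide, was at least 106-fold lower in mouse 1 than in the other mice, with 0.123, 65.7 and 115 CPM in LP, against 4.43, 780.3 and 1774 CPM in ML, in the order of mice 1, 2 and 3. Spp1, osteopontin, was lower in the same mouse, with 16.3, 555 and 658 CPM in LP, against 0, 20.02 and 3.46 CPM in ML. Csn1s2a, Lalba and Rspo1 were in the same set. Higher in mouse 1 were, among others, the neutrophil chemokines Cxcl2 and Cxcl5. Cxcl5 had 15.5, 0.890 and 0.552 CPM in LP, against 1.74, 0 and 0 CPM in ML.

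Tnfsf11, RANK ligand, was 24.9-fold or more higher in mouse 2 than in the other mice in both populations. Rpl29, a ribosomal protein gene, was at least 7.13-fold lower in mouse 2, with 81.5, 6.89 and 86.1 CPM in LP, against 54.8, 7.26 and 71.4 CPM in ML. Mouse 3 had higher Sftpd, surfactant protein D, with 4.19, 2.89 and 36.2 CPM in LP, against 0.792, 0.417 and 65.8 CPM in ML. The adhesion gene Dscam was lower there, with 8.27, 8.01 and 0.0613 CPM in LP, against 68.9, 68.0 and 3.76 CPM in ML.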
